A study of Mus musculus with 6 samples.

Results

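The 10 genes described here are regulators and effectors of the integrated stress response, grouped around the transcription factors ATF4 and CHOP (encoded by Ddit3). They were chosen by name: Atf4, Ddit3, Atf3, Atf5, Nupr1, Trib3, Ppp1r15a, Sesn2, Ddit4 and Chac1. Each symbol matched 1 of the 40303 gene models in the table, and all 10 passed the filter of a mean of at least 10 normalized counts. Ddit3 stands in 2 rows with the same values under 2 Ensembl identifiers and was used once.

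Messenger RNA was sequenced from 6 tumours of CT26, a mouse colon carcinoma line, each grown under the skin of a wild-type BALB/c mouse. In the treated group 3 mice received PEGylated glutaminase, an enzyme that degrades glutamine, into the peritoneum at 50 IU per kg. In the control group 3 mice received vehicle, which was phosphate-buffered saline with 10% glycerol. Injections were 3 days apart and 2 were given before the tumours were frozen. The labels used here state neither age nor sex of the mice, and all tumours derive from the same cell line. The enzyme acts on the circulation, and glutamine in the tumours is not among the values used here. A tumour piece holds carcinoma cells, stroma and immune cells together, so fewer cells of a type and less RNA per cell cannot be told apart.

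When an amino acid runs short, uncharged transfer RNA activates the kinase GCN2, which phosphorylates the initiation factor eIF2. Most protein synthesis then slows, while the messages of ATF4 and ATF5 are translated better through short upstream reading frames. ATF4 enters the nucleus and switches on genes of amino acid supply together with Ddit3, Atf3, Trib3, Chac1, Sesn2 and Nupr1. ATF4 is controlled largely by translation, so the level of its message and its activity can differ. PERK, a kinase of the endoplasmic reticulum, PKR and HRI converge on the same step.

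ATF4 binds DNA with C/EBP proteins at a composite element whose core reads TGATGCAA on 1 strand and TTGCATCA on the other. RefSeq promoter windows of build GRCm38.p6, from 250 bases before to 50 bases after each start, covered all 10 genes in 11 windows. Sequence outside these windows was not searched, so an element further away is missed, and BALB/c sequence was not searched either. TGATGCAA, searched on both strands, was found in 3 of the 10 genes, against 1.03% of 27025 genes with a window. The looser TGATGNAA, which includes the first motif, was found in 4 of the 10, the fourth being Trib3 with TGATGTAA, against 4.51% of all genes. The stretches below are shown because they hold the exact element, in capitals, as read on the strand of the gene.
Atf3, chr1:191183405-191183474, minus strand: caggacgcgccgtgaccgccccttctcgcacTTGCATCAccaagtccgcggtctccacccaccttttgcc
Chac1, chr2:119351018-119351087, plus strand: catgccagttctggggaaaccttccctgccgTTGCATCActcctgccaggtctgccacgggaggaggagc
Nupr1, chr7:126625542-126625611, minus strand: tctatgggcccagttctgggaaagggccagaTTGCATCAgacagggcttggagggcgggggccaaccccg

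In all 3 the element lies before the start site, its first base 110 bases upstream in Atf3 and Nupr1 and 193 bases upstream in Chac1. The log2 differences of these 3 genes between treated and control tumours were -0.68 ± 0.42 for Atf3, 0.17 ± 0.19 for Chac1 and -0.48 ± 0.13 for Nupr1 (SE), and the 95% intervals of Atf3 and Chac1 include 0. A match of letters is a description of the window and no evidence of binding. Of the other ATF4 target genes listed for comparison, 7 of 31 with a window held the exact element, namely Fgf21, Herpud1, Jdp2, Pycr1, Slc1a4, Slc7a11 and Vldlr.

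Recovered reads ran from 16455052 to 18051480 per library. The span was narrow, but every vehicle library (17380129 to 18051480) was deeper than every treated one (16455052 to 16791267). The libraries were not alike in their levels of cell type markers. Summed keratinocyte and skin markers stood at 8992 normalized counts in vehicle 1 and at 65.3 to 286 in the other 5 tumours. In PEG-glutaminase 2 summed T and NK cell markers were lowest, at 950 against 2678 to 6690 elsewhere, and summed skeletal muscle markers were highest, at 2232 against 219 to 1535. Among markers of the graft, Vim averaged 125759 ± 12973 in vehicle and 100787 ± 11261 in PEG-glutaminase tumours (SD, n = 3 per group), while the epithelial adhesion gene Epcam was low, at 24.5 ± 28.9 and 4.36 ± 3.12. The vehicle mean of Epcam rests on vehicle 1, at 58.0, the tumour with the high skin markers. Epcam stood at 6.87 and 8.83 in vehicle 2 and 3 and at 2.07 to 7.92 in the treated tumours.

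None of the 10 genes passed limma with Benjamini-Hochberg adjustment over 13557 genes, a test that called 0.0369% of all genes (0.00738% higher and 0.0295% lower). At an unadjusted limma p under 0.05 stood 3 of the 10 (Atf5, Nupr1 and Sesn2), against 18.4% of all genes; Atf5 and Sesn2 were higher (8.92% of all genes) and Nupr1 lower (9.51%). In the same 3 genes no treated tumour lay inside the vehicle range or the reverse, as in 25.8% of all genes, 13.1% higher and 12.7% lower. edgeR with TMM scaling called 0 of the 10 and 0.0369% of all genes (0.00738% higher, 0.0295% lower). DESeq2 called 2 of the 10, Atf5 higher and Nupr1 lower, and 3.9% of all genes (1.73% higher, 2.17% lower). Of the 10 genes 4 were higher and 6 lower, with a median log2 difference of -0.12 beside -0.00005 over all genes. The sign of that median rests on the setting: it was 0.0951 without PEG-glutaminase 2 (5 higher, 5 lower), 0.0212 without vehicle 1 and PEG-glutaminase 2, -0.27 without PEG-glutaminase 3, 0.00358 by edgeR with TMM scaling and -0.00122 by DESeq2. An exact permutation test of 3 against 3 cannot go below p = 0.1, and Atf5, Nupr1 and Sesn2 stood at that value.

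**Figure D1:**
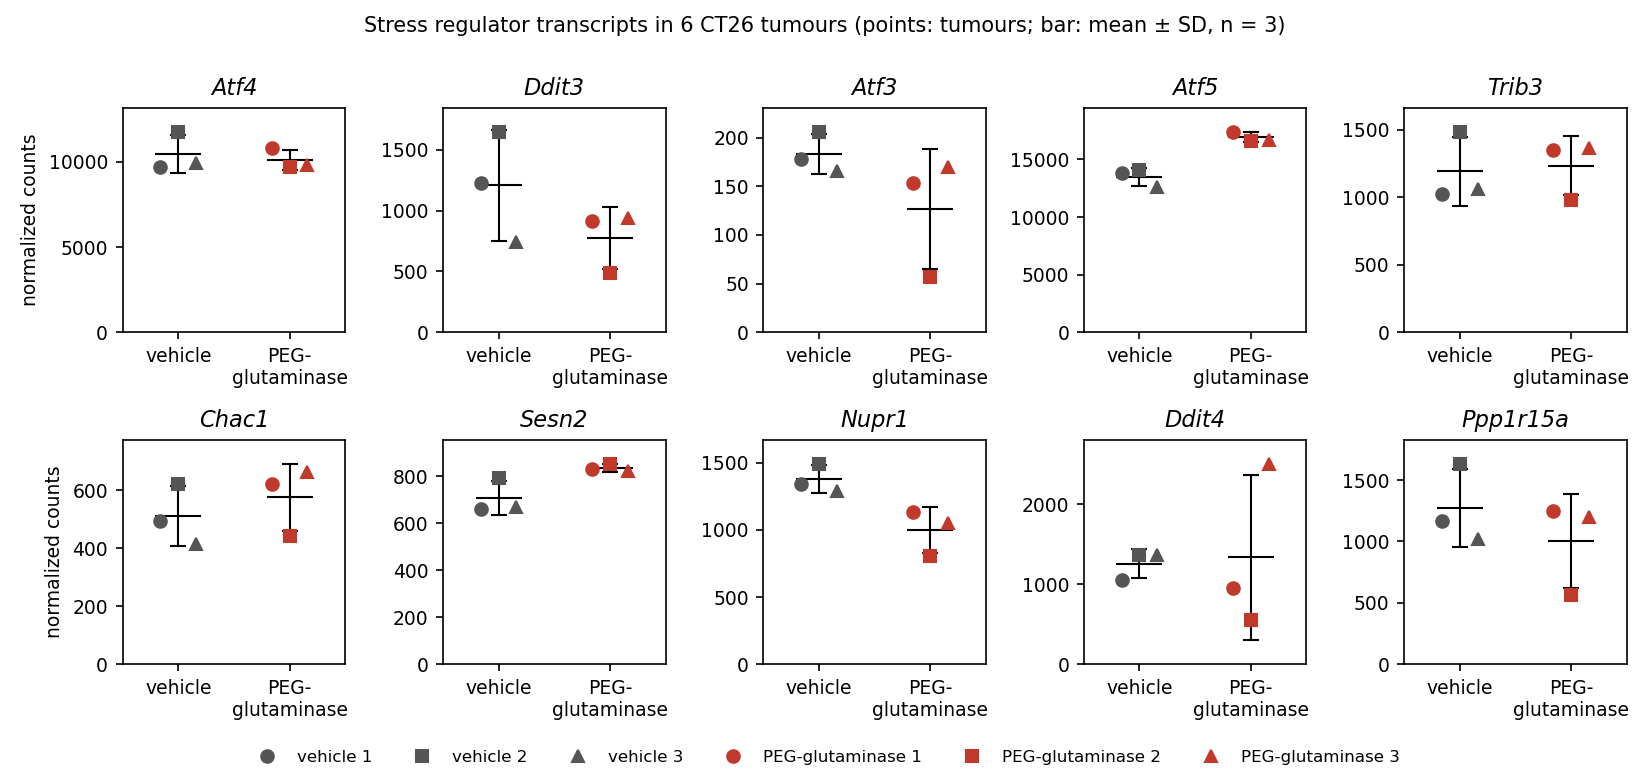
Normalized counts of the 10 genes (vertical axes, each from 0) in vehicle (grey) and PEG-glutaminase (red) tumours. Points are tumours, with the symbol giving the replicate number, and bars are the mean ± SD (n = 3). The red points lie wholly above the grey ones for Atf5 and Sesn2 and wholly below for Nupr1, and PEG-glutaminase 2 (red square) is the lowest tumour in 7 panels.

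Atf4, the hub of the response, had nearly equal message levels in both groups. Its normalized counts were 9722, 11780 and 9932 in vehicle 1, 2 and 3, and 10803, 9718 and 9820 in PEG-glutaminase 1, 2 and 3. The groups overlapped throughout, with vehicle 2 the highest tumour. The log2 difference was -0.05 ± 0.10 (SE; limma adjusted p = 0.828) with a 95% interval of -0.27 to 0.17. The interval lies within 1.5-fold in both directions.

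Atf5, a bZIP factor that is translated under the same eIF2 control as ATF4, was higher in every treated tumour than in any control. Normalized counts were 13787, 14054 and 12627 in vehicle 1, 2 and 3 and 17407, 16627 and 16707 in PEG-glutaminase 1, 2 and 3. The group means were 13489 ± 759 and 16914 ± 429 (SD, n = 3 per group), a ratio of 1.25. The log2 difference was 0.33 ± 0.09 (SE; limma adjusted p = 0.135). DESeq2 on the recovered reads gave an adjusted p of 0.00775 for Atf5. Over 18 alternative settings the Atf5 difference ran from 0.28 to 0.36, and the adjusted p from 0.00775 to 0.296. It was the steadiest of the 10 genes within groups, with a residual SD of 0.06 on the log2 scale, at percentile 8.03 of all tested genes.

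The ratio of the 2 translationally controlled factors was examined after the values were seen, with no test. Atf5 over Atf4, both as normalized counts per kilobase of the principal transcript, was 1.35, 1.13 and 1.21 in vehicle 1, 2 and 3. The same ratio was 1.53, 1.63 and 1.62 in PEG-glutaminase 1, 2 and 3, above every vehicle tumour.

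Ddit3 encodes CHOP, the factor downstream of ATF4 that is tied to cell death under lasting stress. Its normalized counts were 1228, 1650 and 745 in vehicle 1, 2 and 3 and 912, 483 and 938 in PEG-glutaminase 1, 2 and 3. Vehicle 3 lay below 2 of the treated tumours, so the groups overlapped, and PEG-glutaminase 2 was lowest of all. The log2 difference of Ddit3 was -0.62 ± 0.41 (SE; limma adjusted p = 0.466), with a 95% interval of -1.69 to 0.45. Without PEG-glutaminase 2 it was -0.31, without vehicle 2 it was -0.36 and without vehicle 3 it was -0.93. The interval reaches from a marked decrease to a modest increase.

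Atf3, a stress-induced bZIP factor that mostly represses, was the scarcest of the 10. It stood at 178, 206 and 166 normalized counts in vehicle 1, 2 and 3 and at 153, 56.4 and 170 in PEG-glutaminase 1, 2 and 3. PEG-glutaminase 2 stood at 0.35 of the mean of the other treated tumours, of which PEG-glutaminase 3 lay inside the vehicle range and PEG-glutaminase 1 just below it. The log2 difference of Atf3 was -0.68 ± 0.42 (SE; limma adjusted p = 0.420), and -0.18 ± 0.16 without PEG-glutaminase 2.

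Nupr1, a small chromatin-associated stress protein, was lower in every treated tumour than in any control. Normalized counts were 1346, 1494 and 1291 in vehicle 1, 2 and 3 and 1135, 808 and 1051 in PEG-glutaminase 1, 2 and 3. The highest treated tumour, PEG-glutaminase 1, lay below the lowest control, vehicle 3. The means were 1377 ± 105 and 998 ± 170 (SD, n = 3 per group), and the log2 difference was -0.48 ± 0.13 (SE; limma adjusted p = 0.135). DESeq2 gave an adjusted p of 0.0291 for Nupr1. Without PEG-glutaminase 2 the log2 difference was -0.33 ± 0.10, and over 18 alternatives the adjusted p ran from 0.0291 to 0.340.

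Trib3 and Ppp1r15a work as brakes. Trib3 is a pseudokinase, induced by ATF4 and CHOP, that binds ATF4 and AKT. Its normalized counts were 1028, 1487 and 1061 in vehicle 1, 2 and 3 and 1354, 980 and 1364 in PEG-glutaminase 1, 2 and 3. The groups overlapped, with vehicle 2 above every treated tumour and PEG-glutaminase 2 below every control, and the log2 difference of Trib3 was 0.05 ± 0.18 (SE; limma adjusted p = 0.901). It took values from -0.0440 to 0.22 when 1 library was left out, so its sign rests on single libraries.

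Ppp1r15a encodes GADD34, the subunit that brings protein phosphatase 1 to eIF2 and restores translation. It stood at 1165, 1634 and 1020 normalized counts in vehicle 1, 2 and 3 and at 1250, 560 and 1202 in PEG-glutaminase 1, 2 and 3. PEG-glutaminase 1 and 3 lay inside the vehicle range and PEG-glutaminase 2 far below it. The log2 difference of Ppp1r15a was -0.40 ± 0.38 (SE; limma adjusted p = 0.610), -0.0257 without PEG-glutaminase 2 and -0.21 without vehicle 2. Its constitutive relative Ppp1r15b stood at 0.12 ± 0.08 (limma adjusted p = 0.444).

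Sesn2 and Ddit4 restrain mTORC1, the kinase complex that couples amino acid supply to growth. Sestrin 2 binds leucine and holds back the GATOR2 complex when leucine is low. Sesn2 stood at 663, 794 and 671 normalized counts in vehicle 1, 2 and 3 and at 831, 854 and 823 in PEG-glutaminase 1, 2 and 3. The treated tumours were tightly grouped and all above the controls, with means of 709 ± 73.3 and 836 ± 16.3 (SD, n = 3 per group). The log2 difference of Sesn2 was 0.24 ± 0.09 (SE; limma adjusted p = 0.224), and DESeq2 gave 0.273. It ran from 0.18 to 0.33 over 18 alternatives and passed in none of them.

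Ddit4 encodes REDD1, which acts through the TSC complex and also answers to hypoxia and glucocorticoids. Its normalized counts were 1057, 1360 and 1362 in vehicle 1, 2 and 3 and 951, 548 and 2509 in PEG-glutaminase 1, 2 and 3. The treated group held both the lowest and the highest tumour. The log2 difference of Ddit4 was -0.19 ± 0.60 (SE; limma adjusted p = 0.893), and its residual SD of 0.80 lay at percentile 97.2 of all tested genes. It was 0.30 without PEG-glutaminase 2 and -0.79 without PEG-glutaminase 3, so 1 library sets its sign. The arithmetic means, 1259 ± 175 and 1336 ± 1036 normalized counts (SD, n = 3 per group), differ in the opposite direction, as did the DESeq2 log2 change of 0.0854. Tsc22d3, a glucocorticoid target also known as GILZ, had the same 2 extremes, with 1767 normalized counts in PEG-glutaminase 2, 5428 in PEG-glutaminase 3 and 2663 to 3443 in the other tumours; this gene was picked after its values were seen.

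Chac1, which breaks down glutathione and is induced by ATF4, differed little between the group means. It stood at 496, 623 and 415 normalized counts in vehicle 1, 2 and 3 and at 620, 443 and 663 in PEG-glutaminase 1, 2 and 3. The groups overlapped, and the log2 difference of Chac1 was 0.17 ± 0.19 (SE; limma adjusted p = 0.659), with a 95% interval of -0.27 to 0.61. It was 0.35 without PEG-glutaminase 2, 0.32 without vehicle 2 and 0.0283 without vehicle 3. Its relative Chac2, which degrades glutathione constitutively, was lower in all treated tumours, at 384 ± 33.7 against 262 ± 20.0 (SD, n = 3 per group). The log2 difference of Chac2 was -0.55 ± 0.12 (SE; limma adjusted p = 0.114), and DESeq2 called it at an adjusted p of 0.0158. Of the 12 tested relatives of the 10 genes, 7 were higher and 5 lower (5 and 7 without PEG-glutaminase 3). limma called 0, with 4 at an unadjusted p under 0.05 against 18.4% of all genes, and 2 without PEG-glutaminase 3. Of the 4, Jdp2 and Cebpg are also counted among the other ATF4 target genes. Among the 12 relatives Trib2 stood at -0.38 ± 0.12, Trib1 at 0.12 ± 0.08, Sesn1 at -0.05 ± 0.12 and Sesn3 at -0.20 ± 0.44.

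**Figure D2:**
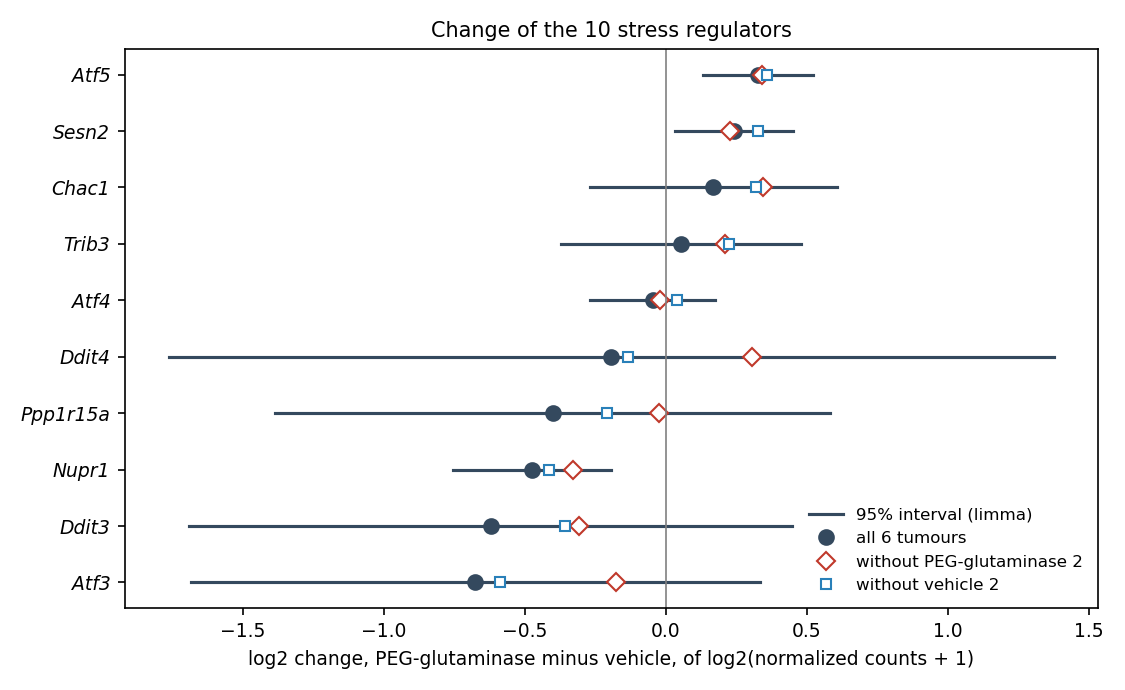
Log2 difference of each gene (horizontal axis, PEG-glutaminase minus vehicle) with its 95% limma interval, for all 6 tumours (filled circles), without PEG-glutaminase 2 (diamonds) and without vehicle 2 (squares). Intervals for Ddit4, Ddit3, Atf3 and Ppp1r15a are wide, and for Ppp1r15a the diamond moves from -0.40 to -0.0257.

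Per unit length the 10 messages spanned a wide range. As normalized counts per kilobase of the principal GENCODE M21 transcript in vehicle tumours, Atf5 at 7428 ± 418 and Atf4 at 6074 ± 657 were highest (SD, n = 3). Nupr1 at 1661 ± 127 and Ddit3 at 1357 ± 509 followed, and their levels per kilobase did not differ beyond the spread of Ddit3. Below these came Ddit4 at 718 ± 100, Trib3 at 588 ± 126, Ppp1r15a at 453 ± 114 and Chac1 at 312 ± 64.0 per kilobase, and the ranges of mean ± SD of neighbours in that order overlapped. Sesn2 at 204 ± 21.1 and Atf3 at 92.3 ± 10.4 per kilobase were lowest. In PEG-glutaminase tumours Atf5 at 9314 ± 236 and Atf4 at 5863 ± 347 per kilobase again led, and Atf3 at 63.8 ± 30.9 was again last. The rank of Nupr1 rests on the transcript chosen: per kilobase of its longest transcript it stood at 562 in vehicle tumours.

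The genes also differed in how far single tumours strayed from their group. Residual SDs of Ddit4, Atf3, Ddit3 and Ppp1r15a all lay above percentile 90 of tested genes, at 97.2, 94.7, 93.2 and 91.9. Chac1 and Trib3 stood at percentiles 78.8 and 76.8, while Atf4, Sesn2 and Atf5 stood at 37.3, 27.5 and 8.03. PEG-glutaminase 2 was the lowest of the 6 tumours for 7 of the 10 genes, where this held for 24.6% of all genes. Vehicle 2 was the highest for 6 of the 10, and for 22.8% of all genes. The reverse, PEG-glutaminase 2 highest, held for Sesn2 and for 23.9% of all genes. These 6 were Atf4, Ddit3, Atf3, Trib3, Nupr1 and Ppp1r15a, each lowest in PEG-glutaminase 2.

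Other gene lists also varied between these tumours. The 14 hypoxia target genes had a mean log2 deviation of 0.69 from the 6-tumour mean in vehicle 2 and of -1.12 in PEG-glutaminase 2, with the other tumours from -0.00647 to 0.24. The 21 immediate early genes, which respond fast to growth factors and to handling of tissue, were lowest in PEG-glutaminase 2, at -0.39, and stood at 0.18 in vehicle 2, at 0.15 in PEG-glutaminase 1 and at -0.0815 to 0.0899 in the others. T and NK cell markers were also lowest in PEG-glutaminase 2, at -1.88, while all 19 of them were lower in the treated group as a whole. Dendritic cell markers summed to 29292 to 49380 in vehicle and 8201 to 18806 in PEG-glutaminase tumours. Most of that sum came from Cd74, H2-Aa, H2-Ab1 and H2-Eb1, antigen presentation genes that are not confined to dendritic cells. With each of the 14 markers weighted equally, mean log2 deviations were 0.0681 to 0.67 in vehicle and -0.46 to -0.28 in PEG-glutaminase tumours. Of the 14, 12 were lower and 2 higher. The part of these differences in the values of Ddit3, Atf3, Ppp1r15a and Ddit4 was not tested.

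**Figure D3:**
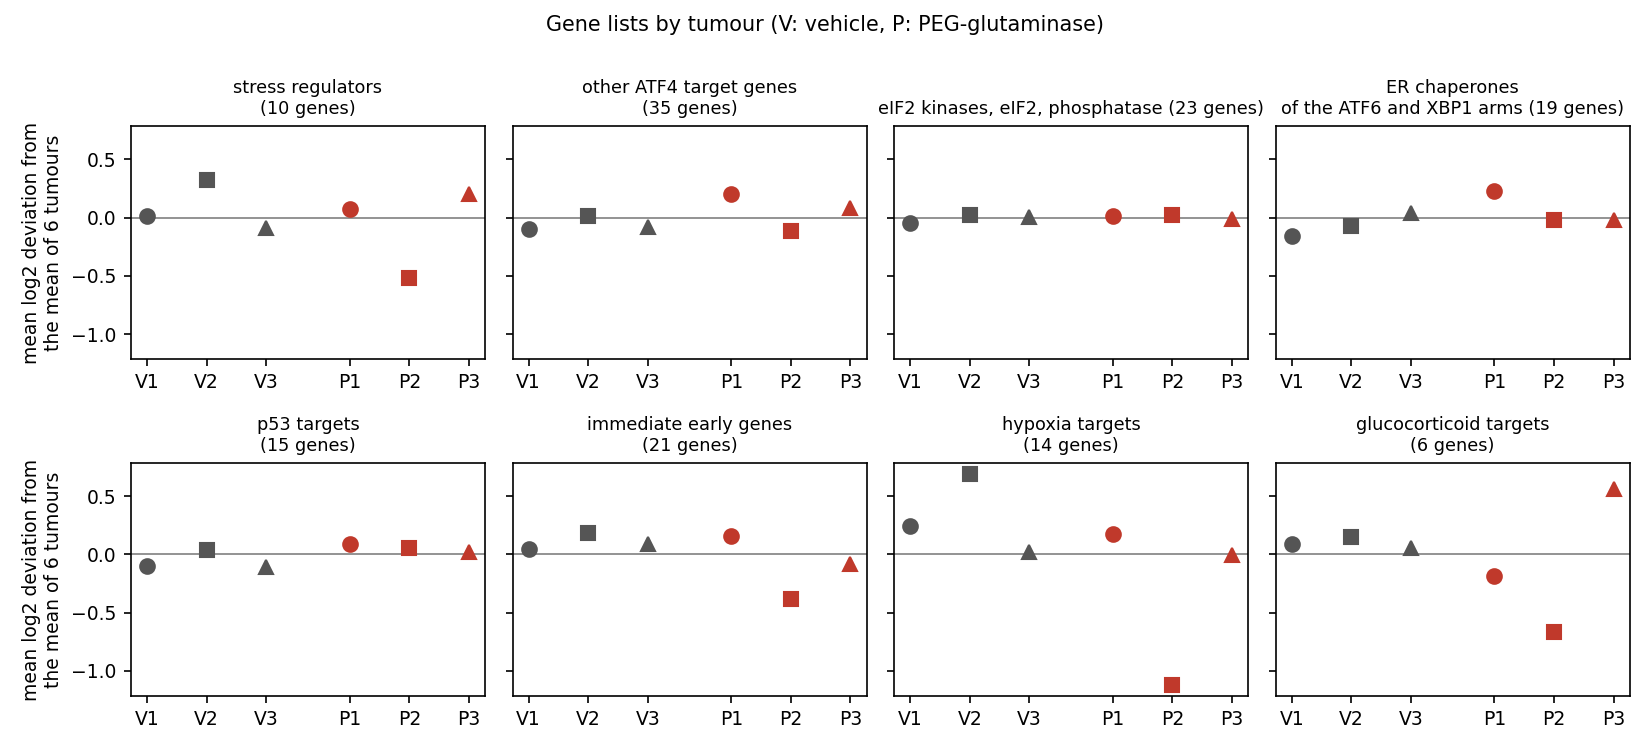
Mean deviation of each gene list from its 6-tumour mean (vertical axis, log2 of normalized counts + 1) in vehicle (V1 to V3, grey) and PEG-glutaminase (P1 to P3, red) tumours. The 10 stress regulators, the hypoxia targets and the immediate early genes are all highest in V2 and lowest in P2. The mean of the eIF2 list lies between -0.0467 and 0.0222 in all 6 tumours.

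By likeness of pattern, measured as the root mean square difference of centred log2 values over the 6 tumours, Ddit3 was nearest to 3 genes outside the set. These were Trem1, a receptor of neutrophils and monocytes, at 0.05, Gadd45b, a stress-responsive signalling adaptor, at 0.09 and Il1rn, the interleukin 1 receptor antagonist, at 0.15, among 10333 genes. Of the 10 stress regulators Ppp1r15a came closest to Ddit3, at rank 16, with Atf3 at rank 131, Nupr1 at rank 180, Trib3 at rank 998, Chac1 at rank 1175, Atf4 at rank 2152, Sesn2 at rank 7165, Ddit4 at rank 7219 and Atf5 at rank 7890. Atf5 was nearest to Prmt3, an arginine methyltransferase, at 0.02, Zfp275 at 0.04 and the import receptor Ipo7 at 0.04, and Sesn2 came at rank 143. Nupr1 was nearest to the transcription factor Usf1, Whamm and Bphl, each at 0.06.

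Upstream of ATF4, the eIF2 list holds the kinases, the subunits of eIF2, its exchange factor eIF2B and its phosphatase. It also holds regulators of the kinases, such as Gcn1, Impact and Dnajc3, and other initiation factors, such as Eif2a. Of 23 genes tested 14 were higher and 9 lower, with a median log2 difference of 0.01, and without vehicle 1 the split was 8 higher and 15 lower. limma called 0 of the 23, with 5 at an unadjusted p under 0.05 against 18.4% of all genes, and the 5 became 2 without PEG-glutaminase 1 and 3 without vehicle 1 or vehicle 2. DESeq2 called 1 of the 23, against 3.9% of all genes. That gene was Impact, an inhibitor of GCN2, at 1519 ± 124 normalized counts in vehicle and 1174 ± 79.0 in PEG-glutaminase tumours (SD, n = 3 per group). Its log2 difference was -0.37 ± 0.09 (SE; limma adjusted p = 0.122, DESeq2 adjusted p = 0.0286). Gcn1, the activator that presents uncharged transfer RNA to GCN2, stood at 0.34 ± 0.10 (limma adjusted p = 0.148).

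The groups did not overlap in 6 of the 23 genes, against 25.8% of all genes: Gcn1, Dnajc3 and Eif2ak4 were higher and Impact, Eif2a and Eif2ak2 lower. GCN2 itself (Eif2ak4) stood at a log2 difference of 0.18 ± 0.09 and PERK (Eif2ak3) at 0.08 ± 0.12. PKR (Eif2ak2), the kinase activated by double-stranded RNA, stood at -0.23 ± 0.09, the initiation factor Eif2a at -0.22 ± 0.08 and Dnajc3, an inhibitor of PKR and PERK, at 0.26 ± 0.09. None of these 5 passed limma.

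Downstream, the list of other ATF4 target genes leaned higher: 25 of 35 tested were higher, against 50% of all genes, with a median log2 difference of 0.14 beside -0.00005 over all genes. limma called 0 of the 35. At an unadjusted p under 0.05 stood 12 that were higher, where 8.92% of all genes did so, and 1 that was lower, against 9.51%. These 13 became 6 without PEG-glutaminase 1 and 8 without vehicle 1. DESeq2 called 2, both higher, against 1.73% of all genes. The median was 0.21 without PEG-glutaminase 2 and 0.0756 without PEG-glutaminase 1. This lean was already known when the list was drawn up and is no independent support.

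The target with the smallest p was Aldh1l2, a mitochondrial folate dehydrogenase. It stood at 958, 876 and 1044 normalized counts in vehicle 1, 2 and 3 and at 1826, 1241 and 1594 in PEG-glutaminase 1, 2 and 3, without overlap. Its log2 difference was 0.68 ± 0.14 (SE; limma adjusted p = 0.114). Aldh1l2 passed DESeq2 at an adjusted p of 0.000654, and limma without PEG-glutaminase 2 at 0.0218. Slc1a5, the main glutamine carrier of many tumour cells, was the other DESeq2 call, at 0.38 ± 0.10 (limma adjusted p = 0.133, DESeq2 adjusted p = 0.0163).

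Enzymes of serine and folate metabolism stood at log2 differences of 0.27 ± 0.10 for Phgdh, 0.20 ± 0.08 for Psat1 and 0.30 ± 0.09 for Shmt2. Xpot, which exports transfer RNA from the nucleus, stood at 0.27 ± 0.08, and Fgf21, a stress hormone near the detection limit at 10.1 ± 4.98 and 29.0 ± 13.5 normalized counts, at 1.46 ± 0.47. Jdp2, a relative of Atf3, stood at 0.23 ± 0.08. The C/EBP partners of ATF4 stood at 0.19 ± 0.08 for Cebpg and 0.11 ± 0.21 for Cebpb. None of these 8 passed limma, and none passed DESeq2 where it gave an adjusted p.

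Asns, asparagine synthetase and a textbook ATF4 target, stood at 0.17 ± 0.11 (limma adjusted p = 0.392), the cystine carrier Slc7a11 at -0.02 ± 0.10 and Stc2, a secreted glycoprotein, at 0.05 ± 0.14. Map1lc3b, the autophagy protein LC3, was the 1 target at an unadjusted p under 0.05 that was lower, at -0.33 ± 0.11. Gdf15, a stress cytokine, fell short of the filter, with 7.73, 6.87 and 5.89 normalized counts in vehicle 1, 2 and 3 and 10.4, 12.9 and 10.3 in PEG-glutaminase 1, 2 and 3, and so was left out of the main test.

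**Figure D4:**
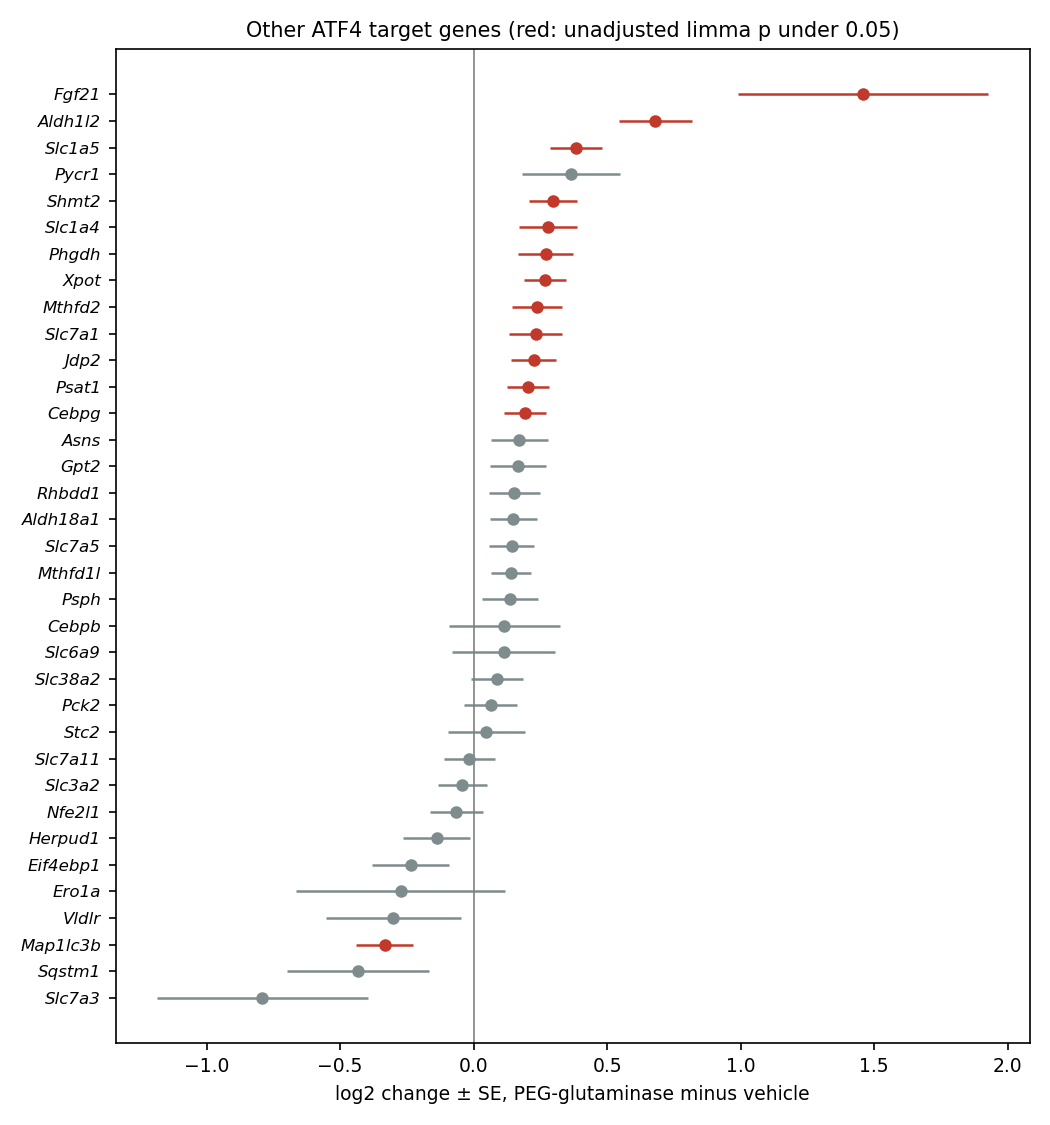
Log2 difference ± SE (horizontal axis, PEG-glutaminase minus vehicle) of the 35 tested ATF4 target genes outside the 10 regulators. Red marks an unadjusted limma p under 0.05: 12 genes lie to the right of 0 and Map1lc3b to the left, and none passed after adjustment.

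Set beside these, the endoplasmic reticulum chaperones of the ATF6 and XBP1 arms, which answer to misfolded protein, were higher in 16 of 19, against 50% of all genes, with a median log2 difference of 0.10. limma called 0, with 4 at an unadjusted p under 0.05 against 18.4% of all genes, and DESeq2 called 0. Without PEG-glutaminase 1 the median was 0.0488, with 13 of 19 higher and 0 at an unadjusted p under 0.05, and without vehicle 1 or vehicle 2 that last count was 1. Pdia4 stood at 0.27 ± 0.09 and Hyou1 at 0.34 ± 0.11. The 14 hypoxia targets were all lower, with a median of -0.61, and limma called 0 of them. At an unadjusted p under 0.05 stood 1, Ankrd37 at -1.14 ± 0.44, against 18.4% of all genes. That count ran from 0 (without vehicle 1 or vehicle 2) to 4 (without PEG-glutaminase 1). DESeq2 called 1 of the 14, against 3.9% of all genes (2.17% lower). It was the pyruvate dehydrogenase kinase Pdk1, which stood at -0.66 ± 0.28 by limma. Without PEG-glutaminase 2 the hypoxia median was -0.21 and without vehicle 2 it was -0.34.

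The authors' deposited table of their own comparison gives other values for the same genes. It lists an adjusted p of 0.00181 for Nupr1, at a log2 fold change of -0.51 ± 0.11 (SE), and of 0.00442 for Atf5, at 0.27 ± 0.07. For Sesn2 the authors' deposited table gives 0.0384 at an adjusted p of 0.926, whereas the log2 ratio of group means of its library columns is 0.24. For Trib3, Chac1 and Ddit4 the authors' deposited table gives log2 fold changes of -0.23, -0.18 and -0.0945, whereas the log2 ratios of group means of its library columns are 0.05, 0.17 and 0.0854. For Atf3 the authors' deposited table gives -0.12, and the ratio from the columns is -0.53. The authors' mean differed by over 1% from the mean of the 6 library columns in 60.9% of 11223 gene models with a mean of at least 50. The sources used here do not state which libraries or scaling entered that comparison.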

How the data were processed

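Values are gene counts divided by a size factor of each library, a signal in normalized counts that the authors deposited. Tools named in the submitters' processing notes are STAR, featureCounts, FastQC, DESeq and DESeq2; the sources used here do not state genome build or strand setting. Per the file headers, the deposited table also holds the authors' log2 fold change, its error, a Wald score and p-values. Of 40396 rows, 93 repeat a gene model and were dropped; 2902 models without a symbol hold 0.13% to 0.214% of reads. Within 0.01, 100% of non-zero values were whole multiples of 1 read, so reads were recovered; for PEG-glutaminase 2 this rests on the values alone.

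The main test was limma 3.58.1 in R 4.3.3 (mean trend, robust, two-sided) on log2(value + 1), which understates changes of low genes, for genes with a mean of at least 10, adjusted by Benjamini-Hochberg over all 13557 such genes (called under 0.05). edgeR 4.0.16 and DESeq2 1.42.0 were run on recovered reads. Other pseudocounts, filters and scalings and each library left out were tried, 18 alternatives in all. P-values measure the spread between mice, each with 1 tumour. In simulated counts of 13410 genes, limma called 46.3% of 1.5-fold changes, 70.1% of 2-fold changes and 85.2% of 3-fold changes, with 9.32% of calls false. The simulation changed 200 genes per dataset and drew genes independently, without shifts shared by many genes of 1 tumour. These shares therefore need not hold for the tumours described here. Members and lists were chosen with earlier results of these data known. Lists share genes, so their counts are not independent. Jdp2 and Cebpg are counted among other ATF4 targets, relatives of the members and bZIP partners, and Dnajc3 in the eIF2 and chaperone lists. Named genes were the 10 members; fixed ATF4 target and eIF2 genes and up to 8 per list at an unadjusted p under 0.05; up to 3 of smallest p in each other list; relatives of the members; and the 3 nearest patterns for Ddit3, Atf5 and Nupr1.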

Additional observations from a re-analysis of the deposited data

How the results depend on the processing

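limma called 5 of 13557 genes, 136 with no filter on low values, 1 with the replicate number as a block and 0 to 26 with 1 library left out; DESeq2 called 487. Same-numbered tumours did not deviate together (correlations of -0.13, -0.21 and -0.22), so the numbers do not pair them, and the replicate block called 0 of the 10 regulators. Of the 10, DESeq2 called 2 and every other setting 0. Against 3.9% of all genes, DESeq2 called 1 of 23 in the eIF2 list, 2 of 35 other ATF4 targets and 1 of 12 relatives of the members. It also called 2 of 30 bZIP partners, 1 of 12 CHOP-linked death genes and 1 of 14 hypoxia targets. Of p53 targets it called 2 of 15 and of immediate early genes 1 of 21. In each of these lists limma called 0. Other ATF4 targets had 1 call with no filter and 0 to 1 with 1 library left out, and CHOP-linked death genes 0 to 1. The median of the members' relatives, 0.0669, was -0.0500 with no filter and -0.0170 to 0.13 with 1 library left out; that of CHOP-linked death genes, -0.15, was -0.0736 without vehicle 1 and PEG-glutaminase 2 and -0.179 to -0.0534 with 1 library left out. Signs changed for Ddit4 (0.0848 and 0.0905 by edgeR with deposited and TMM scaling, 0.0854 by DESeq2, 0.18 without vehicle 1 and PEG-glutaminase 2), Stc2 (-0.0129) and Sesn3 (0.0622) without those 2 libraries. With 1 library left out the log2 difference ran from -0.0986 to 0.0400 for Atf4, -0.0440 to 0.2224 for Trib3, -0.7915 to 0.3044 for Ddit4, -0.0944 to 0.0855 for Slc7a11, -0.0272 to 0.3501 for Cebpb, -0.0043 to 0.204 for Eif2ak3, -0.1283 to 0.0488 for Sesn1 and -0.5967 to 0.2221 for Sesn3. The cause was not tested.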

Other observations

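Genes that act with ATF4 and CHOP or share their triggers gave the following values. Over all genes 50% were higher, 18.4% stood at an unadjusted limma p under 0.05 and DESeq2 called 3.9%. Of 30 bZIP dimer partners 15 were higher and 15 lower, but 22 and 8 without PEG-glutaminase 2. limma called 0 of them, with 7 at an unadjusted p under 0.05, which became 3 without PEG-glutaminase 3 and 4 without vehicle 2. DESeq2 called Maf and Batf2, with log2 differences of 0.83 ± 0.24 and -0.84 ± 0.20 by limma (SE). Of 12 genes of CHOP-linked death 4 were higher and 8 lower. Of these limma called 0, with 3 at an unadjusted p under 0.05 (5 without PEG-glutaminase 3, of which it then called 1). DESeq2 called Casp12, a caspase of the endoplasmic reticulum, which stood at -0.98 ± 0.21 by limma. The death receptor Tnfrsf10b, a CHOP target, stood at 0.38 ± 0.13.

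Sesn2 is also a p53 target. Of 15 p53 targets 10 were higher; limma called 0, with 5 at an unadjusted p under 0.05. That count was 2 without vehicle 1 or without PEG-glutaminase 2, and 3 without vehicle 2 or vehicle 3. DESeq2 called the cell cycle inhibitor Cdkn1a and Zmat3, which stood at 0.42 ± 0.10 and 0.42 ± 0.12 by limma. Of 21 immediate early genes 16 were lower, and 12 without PEG-glutaminase 2. limma called 0 of them, with 4 at an unadjusted p under 0.05, which became 9 without PEG-glutaminase 1 and 2 without vehicle 2. DESeq2 called Gadd45g at -0.62 ± 0.22 by limma, a gene named after its values were seen. Of 6 glucocorticoid targets 4 were lower; limma called 0, with 1 at an unadjusted p under 0.05, Fkbp5 at -0.24 ± 0.10, and DESeq2 called 0. Their median of -0.20 was 0.0619 without PEG-glutaminase 2 (3 higher, 3 lower) and -0.46 without PEG-glutaminase 3, where all 6 were lower and 5 stood at an unadjusted p under 0.05.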
